A study of Drosophila melanogaster with 6 samples.

Results

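The genes described here are 31 genes of the cell cycle and of DNA replication in Drosophila melanogaster, chosen by symbol from a table of 17609 gene symbols. They were grouped by the phase in which their products act, with 8 genes of the G1-S transition, 11 of replication, 9 of G2 and mitotic entry, and 3 of mitotic checkpoint and exit. All 31 symbols were found, and all 31 passed the filter on low counts. The RNA came from eye-antennal imaginal discs of larvae in the third instar, the epithelia that form the adult eyes, antennae and head capsule. In 3 biological replicates the larvae were ey-Gal4>UAS-dTet, in which Gal4 under an eyeless enhancer drives a transgene for the fly Tet dioxygenase in the eye field. The 3 control replicates were ey-Gal4>W1118, so both groups carried the driver and the control had no UAS transgene. The driver acts in the eye field, whereas the RNA came from whole discs. In such bulk samples, fewer cells of a type and less RNA per cell cannot be told apart.

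Cyclins activate the kinases (Cdks) that carry a cell from phase to phase. Cyclin D with Cdk4 and Cyclin E with Cdk2 act at the G1-S transition, where Rbf restrains and E2f1 promotes transcription of replication genes. The MCM helicase then unwinds DNA at origins licensed by Dup, and Geminin inhibits Dup. The Cdc25 phosphatase String frees Cdk1 to start mitosis, and the anaphase-promoting complex ends it. In the eye disc, cells divide without synchrony ahead of the morphogenetic furrow and arrest in G1 within it. Behind it, some of them pass through the second mitotic wave, and cells leave the cycle as they differentiate.

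The deposited libraries held between 16395675 and 20242356 counted read pairs, of which the 31 genes took between 0.378% and 0.482%. The lowest count of any of them in any library was 156 read pairs, so counting error was small for most. Tet stood at 315.8, 348.2 and 384.7 CPM (read pairs per 1000000 of the scaled library) in controls and at 364.5, 456.9 and 416.1 CPM in dTet discs. These ranges overlapped, and Tet did not pass the test (log2 fold change 0.24, 95% interval -0.04 to 0.52, edgeR adjusted p = 0.244), so its counts do not separate the groups. Counts per gene do not part transgene from endogenous reads, and the group labels could not be checked by this gene. Control replicate 1 stood apart from the other controls: across 9365 genes counted in every control, its median absolute log2 difference from the mean of the other controls was 0.32, against 0.22 for replicate 2 and 0.18 for replicate 3. For the 31 genes the same figures were 0.30, 0.09 and 0.15. Results are therefore given with and without that library where it changes them.

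Of the 31 genes, 2 differed between dTet and control discs, both lower in dTet: the Cdk inhibitor gene dap and the Cdc25 phosphatase gene stg. None was called higher by edgeR, by DESeq2 or by limma-voom. In that direction none reached an unadjusted p under 0.05 either, which 12% of all tested genes did, while 6 did in the lower direction, against 16.8% of all. The edgeR quasi-likelihood test with Benjamini-Hochberg adjustment over 9417 genes called 11.4% of all tested genes, 3.77% higher and 7.64% lower, so the share of 6.45% called among the 31 was not above that of all genes. The median log2 fold change of the 31 genes was 0.03, beside -0.02 for all tested genes. For 22 of the 31 genes the 95% interval of the fold change lay within 1.5-fold in either direction. Of all 9417 tested genes, 3571 (37.9%) had such an interval, a smaller share. Intervals widen at low counts, and the tested genes include some counted far less than these 31, so the shares are not like for like. DESeq2 called 4 of the 31 genes lower, adding Cdk2 and aurA, and limma-voom called the same 2 as edgeR; over all genes DESeq2 called 6.99% higher and 11.4% lower, and limma-voom 4.19% and 7.66%. A gene not called may still differ by an amount inside its interval.

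**Figure D1:**
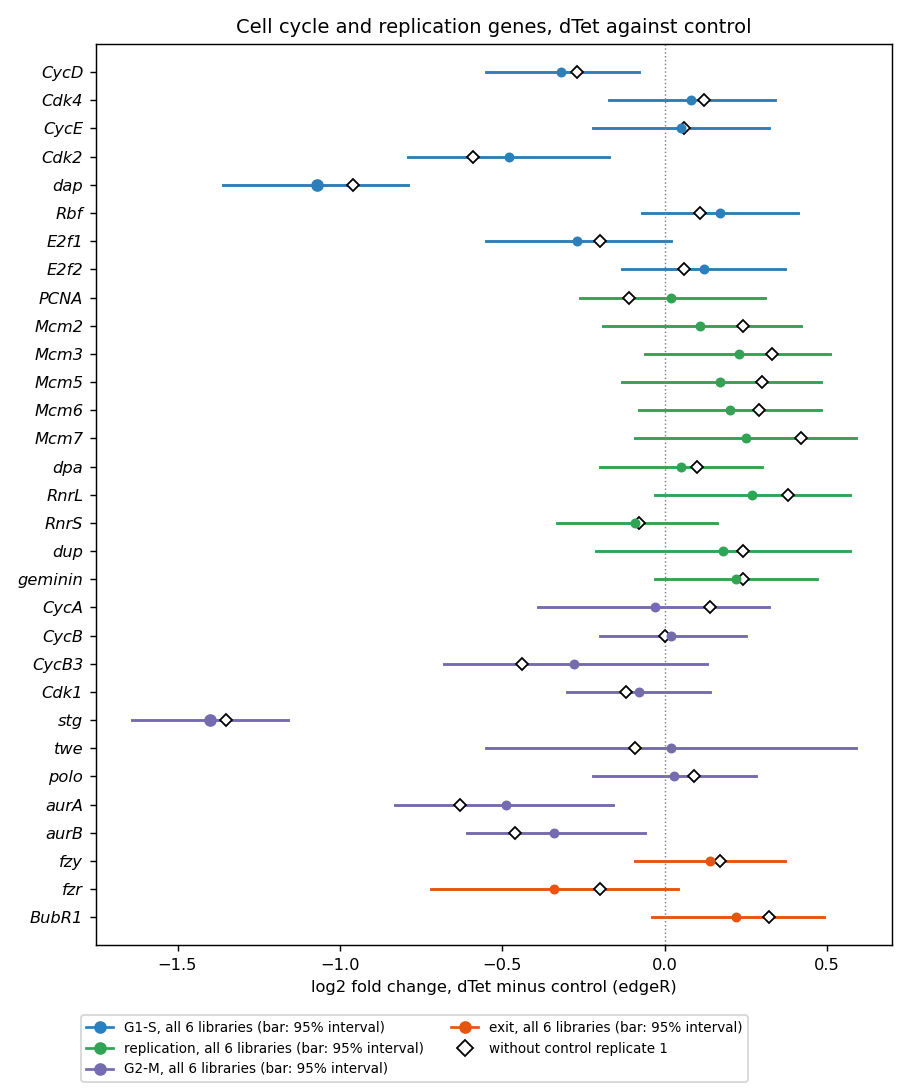
Log2 fold change (dTet minus control) of each of the 31 genes from edgeR on all 6 libraries, as filled dots with 95% intervals coloured by phase, and without control replicate 1 as open diamonds. The dots of dap (-1.07) and stg (-1.40) lie far to the left, whereas most others lie within 0.5 of zero, and the diamonds of the MCM genes lie to the right of their dots.

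Of the 8 G1-S genes, dap was the one that passed. It encodes Dacapo, the fly inhibitor of Cyclin E-Cdk2 of the p21/p27 family, which helps cells arrest in G1 when they differentiate. It lies on chromosome arm 2R at 9712321 to 9716256 (dm6, plus strand). Its level was 234.7, 186.9 and 182.1 CPM in the controls and 94.6, 91.4 and 101.3 CPM in dTet discs. Every dTet library was below every control, and the lowest control stood well above the highest dTet library. The mean fell 2.10-fold, from 201.2 ± 29.1 to 95.77 ± 5.03 CPM (SD, n = 3 each; log2 fold change -1.07, SE 0.13, 95% interval -1.36 to -0.79, edgeR adjusted p = 0.000597). Under the 14 alternative settings of scaling, filter, test and libraries, its log2 fold change stayed between -1.14 and -0.96 and it was called in all 14.

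In the same libraries, all 6 tested markers of photoreceptors and neurons (elav, gl, sev, chp, nSyb and brp) fell, with a summed level of 649 to 713 CPM in the controls, against 47.8 to 49.9 CPM in dTet discs. The sum is weighted to sev and gl, whose control means were 318.3 and 171.7 CPM. Single falls ranged widely, from 2.82-fold for elav and 6.62-fold for chp to 100.79-fold for gl. Both glial markers also fell, from 31.2 to 33.0 CPM to 11.8 to 19.3 CPM in sum. The eye-specifying genes ey, so and eya were lower in the same libraries by 5.37-fold, 14.5-fold and 13.6-fold (edgeR adjusted p from 1.89e-06 to 4.51e-06), and these genes were named after their values were seen. The part of these cell types or of the eye field in the fall of dap, or of stg, was not tested.

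Of the partners of Dacapo, neither passed by edgeR with all libraries and the filter on low counts. CycE, which encodes the cyclin it inhibits, stood at 57.0, 48.6 and 59.3 CPM in the controls and 54.6, 60.3 and 55.5 CPM in dTet discs. The groups overlapped (log2 fold change 0.05, 95% interval -0.22 to 0.32, edgeR adjusted p = 0.818). The ratio of dap to CycE read pairs within a library, which no scaling can alter, was 4.12, 3.85 and 3.07 in controls and 1.73, 1.52 and 1.83 in dTet discs. These ratios did not overlap, and the difference of -1.12 on the log2 scale had the smallest two-sided p that an exact permutation of 3 against 3 allows, 0.1 (0.2 adjusted over the 6 ratios compared).

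Cdk2, the kinase partner of Cyclin E, was at 88.0, 111.0 and 107.0 CPM in controls and at 85.0, 66.9 and 68.2 CPM in dTet discs. Control replicate 1 and dTet replicate 1 nearly met, while the other libraries were well separated. With all 6 libraries Cdk2 did not pass (log2 fold change -0.48, 95% interval -0.79 to -0.17, edgeR adjusted p = 0.0562). It passed by DESeq2 (adjusted p = 0.0218), in edgeR with no filter on low counts (0.0277), without control replicate 1 (0.00343) and without dTet replicate 1 (0.0486). With no filter 7.28% of all tested genes were called lower, and without dTet replicate 1 it was 5.93%. An oppositely oriented gene, CG17267, shares 43.9% of its exon length, but counting used strand.

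CycD and Cdk4 encode the cyclin and kinase that link growth signals to the cycle. CycD stood at 121.5, 108.2 and 106.8 CPM in controls and at 90.0, 85.1 and 95.3 CPM in dTet discs, without overlap. It did not pass with all libraries (log2 fold change -0.32, edgeR adjusted p = 0.0888) and passed without control replicate 1 (-0.27, adjusted p = 0.0372). Cdk4 had 112.6 to 131.2 CPM in the controls, against 118.2 to 142.4 CPM in dTet discs, which overlapped (log2 fold change 0.08, 95% interval -0.17 to 0.34).

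Among the transcriptional regulators of this transition, Rbf, the fly retinoblastoma-family repressor, ranged from 53.8 to 61.2 CPM in controls and from 62.5 to 65.6 CPM in dTet discs. The groups lay apart by a narrow margin and the difference did not pass (log2 fold change 0.17, adjusted p = 0.311). E2f1, the activating E2F, ranged from 129.0 to 158.0 CPM in controls and from 102.8 to 127.4 CPM in dTet discs, again apart and not called (-0.27, adjusted p = 0.199). E2f2, the repressive E2F, overlapped between groups (0.12, adjusted p = 0.522). The ratio of E2f2 to E2f1 was 0.543, 0.711 and 0.680 in controls and 0.815, 0.816 and 0.878 in dTet discs. Its groups did not overlap, with a log2 difference of 0.38 and an exact permutation p of 0.1, the smallest possible (0.2 adjusted over 6 ratios).

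**Figure D2:**
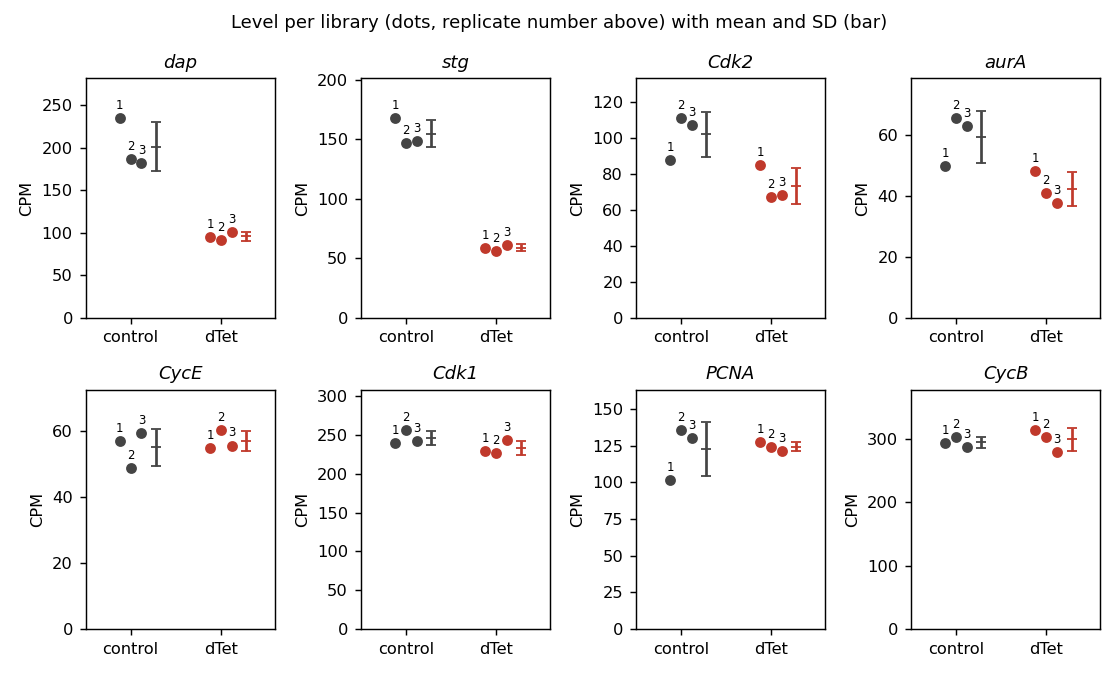
CPM of 8 of the genes in each library, as dots with the replicate number, beside the group mean and SD. dap and stg are separated far beyond the spread of the replicates, Cdk2 and aurA are separated with control replicate 1 near dTet replicate 1, and CycE, Cdk1, PCNA and CycB overlap.

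None of the 11 replication genes passed, by edgeR, DESeq2 or limma-voom, and none had an unadjusted p under 0.05. Their fold changes were positive for 10 and negative for 1, where 4534 of all 9417 tested genes were positive. The median log2 fold change was 0.18, beside -0.11 for the G1-S, -0.08 for the G2-M and 0.14 for the exit genes. Within each control, the MCM genes deviated in the same direction, so these signs are not independent observations. The 6 subunits of the MCM helicase were all positive, from 0.05 (dpa, the Mcm4 gene) through 0.11 (Mcm2), 0.17 (Mcm5), 0.20 (Mcm6) and 0.23 (Mcm3) to 0.25 (Mcm7). Groups overlapped for all 6, and the adjusted p-values ran from 0.27 (Mcm3) to 0.782 (dpa). Signs were the same under each other scaling, but without dTet replicate 3 that of dpa turned (-0.00).

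This outcome depended on control replicate 1. Mcm7, which shares 81.7% of its exon length with an antisense RNA gene on the other strand, was at 181.1 CPM in that library but at 133.9 and 123.9 CPM in the other controls, beside 188.9, 170.3 and 163.6 CPM in dTet discs. The first control thus lay among the dTet libraries and the other controls below them. The summed level of the 6 subunits had the same arrangement, with 979.1, 800.6 and 747.6 CPM in the controls and 995.9, 899.5 and 946.8 CPM in dTet discs. Control replicate 1 exceeded the mean of the other controls for every subunit, by 0.18 (dpa) to 0.49 (Mcm7) on the log2 scale. Control replicate 3 lay below the mean of the other controls for every subunit, with log2 differences of -0.35 to -0.13. The median absolute difference over the 6 subunits was 0.36 for replicate 1, 0.08 for replicate 2 and 0.29 for replicate 3.

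Without control replicate 1, Mcm3, Mcm5, Mcm6 and Mcm7 were called higher in dTet by 1.25-fold, 1.23-fold, 1.22-fold and 1.34-fold, with edgeR adjusted p-values of 0.0227, 0.0336, 0.0415 and 0.00761. Mcm2 (adjusted p = 0.076) and dpa (0.469) were not called there either. That setting called 33.3% of all tested genes, 14.5% higher and 18.8% lower, and 13 of the 31 genes (41.9%), with 6 higher and 7 lower. No other single library left out gave a call for an MCM gene.

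**Figure D3:**
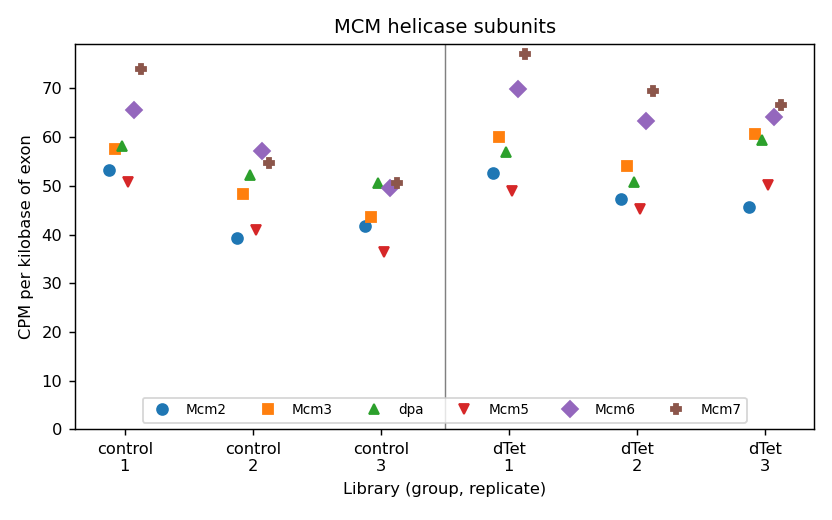
CPM per kilobase of exon for the 6 MCM subunit genes in each library. All 6 are higher in control replicate 1 than in the other controls, and the highest subunit is 1.39 to 1.58 times the lowest in each library.

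Per kilobase of exon, a scale that adjusts for gene length, the 6 subunits, of which the helicase holds 1 copy each, were close to each other. The length counts all annotated exons of a gene, whichever of them its RNA holds, so comparisons between genes are approximate. The highest exceeded the lowest 1.39-fold to 1.46-fold in the controls and 1.46-fold to 1.58-fold in dTet discs. Mcm7 was highest in control replicate 1 and in all dTet libraries, Mcm6 in control replicate 2 and dpa in control replicate 3. Mcm5 or Mcm2 was lowest in every library.

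The sliding clamp gene PCNA, whose protein holds DNA polymerases on the template, did not follow the MCM genes. It was at 101.6, 135.9 and 130.1 CPM in controls and at 127.6, 124.3 and 121.2 CPM in dTet discs, so control replicate 1 was the lowest of the 6 libraries here. The means were nearly the same (log2 fold change 0.02, 95% interval -0.26 to 0.31). Its estimate changed sign without control replicate 1 (-0.11, adjusted p = 0.318), still not called.

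RnrL and RnrS encode the large and small subunits of ribonucleotide reductase, which makes deoxynucleotides. RnrL stood at 219.0, 180.7 and 158.1 CPM in controls and at 226.7, 232.4 and 212.7 CPM in dTet discs, and was not called (log2 fold change 0.27, adjusted p = 0.217). As with Mcm7, control replicate 1 lay among the dTet libraries, and without it RnrL was called 1.31-fold higher (adjusted p = 0.0101). RnrS ranged from 110.5 to 119.7 CPM in controls and from 97.1 to 116.8 CPM in dTet discs (-0.09, adjusted p = 0.636). The RnrS to RnrL ratio was 0.547, 0.646 and 0.699 in controls and 0.498, 0.418 and 0.549 in dTet discs, which overlapped slightly (log2 difference -0.37, exact permutation p = 0.2, 0.3 adjusted).

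Origin licensing showed no called change. dup, the Cdt1 gene that loads the MCM helicase, had 36.4 to 45.1 CPM in the controls, against 58.9, 41.5 and 39.2 CPM in dTet discs, where replicate 1 alone was high (log2 fold change 0.18, adjusted p = 0.522). geminin, its inhibitor, had 51.6 to 57.0 CPM in the controls and 57.8 to 67.4 CPM in dTet discs, apart by a small margin (0.22, adjusted p = 0.23). The geminin to dup ratio lay between 1.26 and 1.42 in controls and between 1.15 and 1.66 in dTet discs (log2 difference 0.05, exact permutation p = 0.8).

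In the G2-M group, stg fell the most of the 31 genes. It encodes String, the Cdc25 phosphatase that removes the inhibitory phosphate from Cdk1 and whose transcription sets the time of mitosis in many fly tissues. It lies on 3R at 29251826 to 29255800 (dm6, minus strand). Its level was 167.7, 147.1 and 148.9 CPM in the controls, against 58.8, 55.6 and 61.4 CPM in dTet discs. The dTet libraries lay close together, and the highest of them was far below the lowest control. The mean fell 2.64-fold, from 154.5 ± 11.4 to 58.61 ± 2.94 CPM (SD, n = 3 each; log2 fold change -1.40, SE 0.11, 95% interval -1.64 to -1.16, edgeR adjusted p = 4.26e-05). It was called under all 14 alternatives, with log2 fold changes of -1.44 to -1.35. The paralog twe, the Cdc25 gene best known from meiosis, stood at only 8.52 to 14.5 CPM and overlapped between groups (0.02, 95% interval -0.55 to 0.59).

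Cdk1, CycB and polo, which also act at mitotic entry, did not pass. Cdk1, the kinase that String activates, was at 239.3, 256.8 and 242.7 CPM in controls and at 229.1, 226.2 and 242.9 CPM in dTet discs (log2 fold change -0.08, 95% interval -0.30 to 0.14). CycB, its B-type cyclin, stood at 287.4 to 304.1 CPM and 280.3 to 315.1 CPM (0.02, 95% interval -0.20 to 0.25). polo, a mitotic kinase, stood at 322.2 to 387.5 CPM and 341.4 to 362.6 CPM (0.03, 95% interval -0.22 to 0.28). For these genes the intervals exclude the log2 fold change of stg.

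CycA, which acts in S phase and G2 in flies, was at 473.2, 348.4 and 315.0 CPM in controls and at 390.1, 340.6 and 378.8 CPM in dTet discs. Control replicate 1 was the highest of the 6 libraries, 0.51 above the mean of the other controls on the log2 scale, the largest such excess among the 31 genes. The fold change was not distinguishable from zero (-0.03, 95% interval -0.39 to 0.32, adjusted p = 0.903) and was 0.14 without that library (adjusted p = 0.274). CycB3, the other B-type cyclin, spread widely among controls, with 44.3, 55.2 and 69.2 CPM, beside 48.8, 51.7 and 38.7 CPM in dTet discs (-0.28, adjusted p = 0.341; -0.44 and adjusted p = 0.044 without control replicate 1).

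The Aurora kinase genes were both lower in every dTet library than in any control, without passing. aurA, whose kinase acts at centrosomes and spindle poles, was at 49.7, 65.5 and 63.0 CPM in controls and at 48.3, 40.8 and 37.5 CPM in dTet discs (log2 fold change -0.49, 95% interval -0.83 to -0.16, edgeR adjusted p = 0.065). As for Cdk2, control replicate 1 and dTet replicate 1 nearly met. aurA passed by DESeq2 (adjusted p = 0.033), with no filter on low counts (0.037) and without control replicate 1 (0.00401). aurB, whose kinase acts at centromeres and the midzone, was at 82.8, 103.5 and 105.1 CPM in controls and at 73.6, 80.9 and 76.2 CPM in dTet discs (-0.34, adjusted p = 0.109; 0.00308 without control replicate 1). The aurB to aurA ratio did not separate the groups (log2 difference 0.16, exact permutation p = 0.4).

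None of the 3 genes of mitotic checkpoint and exit passed by edgeR, DESeq2 or limma-voom, nor at an unadjusted p under 0.05. fzy, the Cdc20 activator of the anaphase-promoting complex in mitosis, had 131.4 to 145.0 CPM in the controls and 142.0 to 157.5 CPM in dTet discs (log2 fold change 0.14, adjusted p = 0.394). fzr, the Cdh1 activator that keeps mitotic cyclins low in G1, was at 40.6, 32.4 and 27.5 CPM in controls and at 28.1, 27.0 and 24.2 CPM in dTet discs (-0.34, adjusted p = 0.213). The fzr to fzy ratio was 0.280, 0.242 and 0.209 in controls and 0.178, 0.177 and 0.171 in dTet discs. The ratios lay apart and were tight in dTet discs (log2 difference -0.47, exact permutation p = 0.1, the smallest possible; 0.2 adjusted over 6 ratios). BubR1, a kinase of the spindle checkpoint, was at 167.1, 131.0 and 138.7 CPM in controls and at 171.9, 164.0 and 174.1 CPM in dTet discs (0.22, adjusted p = 0.247), and was called 1.25-fold higher without control replicate 1 (adjusted p = 0.0159).

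**Figure D4:**
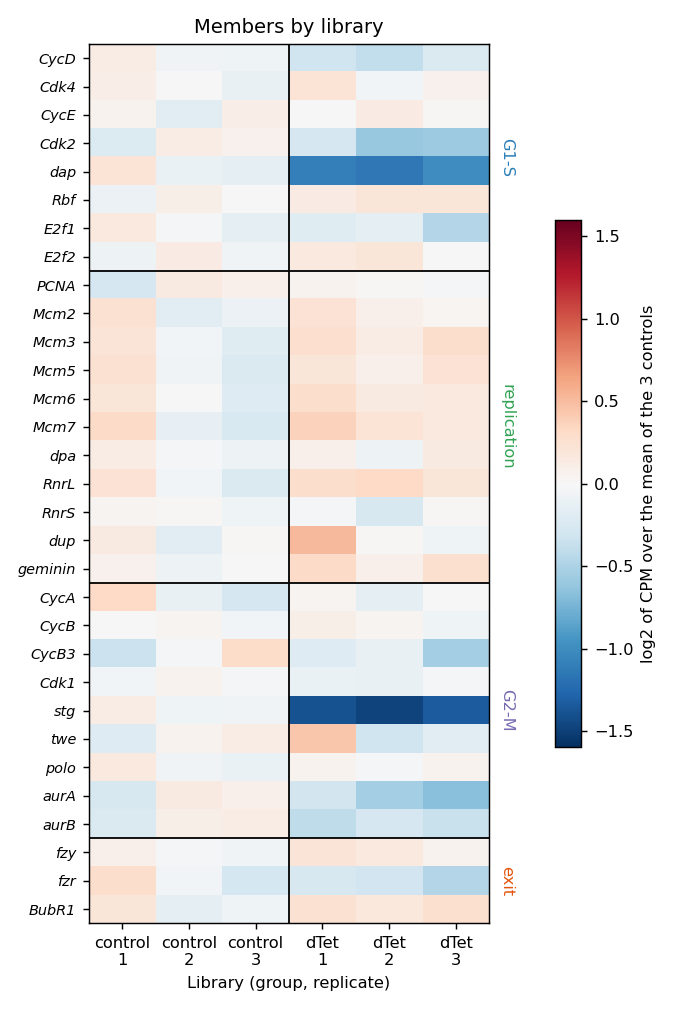
Log2 of the CPM in each library over the mean of the 3 controls, for the 31 genes in rows by phase and the 6 libraries in columns. The rows of dap and stg are blue in all dTet columns, and the control replicate 1 column is red for the MCM genes, RnrL, CycA and fzr and blue for Cdk2, PCNA, CycB3, aurA and aurB.

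Over all 31 genes, the groups lay apart for 9. The dTet libraries were lower for 7 (CycD, Cdk2, dap, E2f1, stg, aurA and aurB), where 17.6% of all tested genes were so placed, and higher for 2 (Rbf and geminin), where 15.1% were. Summed by phase, the G1-S genes held 930.1, 878.7 and 841.2 CPM in the controls, against 755.8, 718.6 and 707.3 CPM in dTet discs. Within those sums the mean of dap went from 201.2 to 95.77 CPM. The replication genes held 1521.6, 1322.0 and 1242.7 CPM and 1589.4, 1452.6 and 1502.1 CPM, with control replicate 1 above dTet replicates 2 and 3. The G2-M sums also lay apart, at 1747.9, 1625.9 and 1565.1 CPM in controls and 1538.7, 1449.4 and 1487.9 CPM in dTet discs. Within them the mean of stg went from 154.5 to 58.61 CPM. Sums of the exit genes overlapped, at 297.5 to 352.7 CPM in controls and 340.4 to 357.5 CPM in dTet discs. The 31 together held 4208 ± 311 CPM in the controls and 4081 ± 144 CPM in dTet discs (SD, n = 3 each), a difference smaller than the spread among controls.

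The order of levels was much the same in both groups. Per kilobase of exon, Cdk1 was the highest of the 31 in controls (228 ± 8.59 CPM per kilobase) and in dTet discs (215 ± 8.23), followed by CycA, polo, PCNA and CycB in both. CycA, polo and PCNA, at 130 ± 28.6, 117 ± 11.7 and 115 ± 17.2 CPM per kilobase in controls, did not differ beyond their spread. twe was last in both, at 4.47 and 4.54 CPM per kilobase, below fzr, CycE and dup, which lay between 9.48 and 14.8. The 2 called genes moved down this order, dap from place 7 to place 19 and stg from place 15 to place 24.

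Other genes of the same processes, 167 in 9 lists, of which 163 were tested, are given for comparison, with 2 called higher and 5 lower (4.29%, against 11.4% of all tested genes). Their median log2 fold change was 0.06. Of the 4 not tested, CycJ had 4 read pairs in all, and Myb, Orc3 and lmgA had none. Those last 3 share 99.1%, 100% and 100% of their exon length with another gene on the same strand, whose pairs are left out of such counts, so a count of 0 is not a measure of their RNA. None of the 31 genes shares exon sequence with a gene on its own strand. Among G1-S regulators, Cks85A, a small Cdk-binding protein gene, fell 1.61-fold from 36.93 ± 7.69 to 22.96 ± 0.200 CPM (1 of 15 tested). Among genes of polymerases, clamp loading and nucleotides, the clamp loader subunit gene RfC3 fell 1.52-fold from 57.5 ± 3.06 to 37.88 ± 3.38 CPM (1 of 26). Among genes of mitotic entry, Rca1, whose protein inhibits the anaphase-promoting complex with Fzr, fell 1.57-fold from 69.87 ± 11.9 to 44.39 ± 4.71 CPM (1 of 14).

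In the list of spindle, chromosome and cytokinesis genes, 2 fell and 1 rose of 28 tested. tum, the RacGAP subunit gene of centralspindlin, and pbl, another gene of cytokinesis, fell 1.32-fold and 1.35-fold, while zip, the non-muscle myosin heavy chain gene, rose 1.54-fold from 574.6 ± 55.8 to 886.3 ± 53.5 CPM. shtd, which encodes the Apc1 subunit of the anaphase-promoting complex, rose 1.30-fold (1 of 15 in its list). edgeR adjusted p-values of these 7 calls lay between 0.0105 and 0.0351. Lists for origins and forks (20 tested), kinetochore and checkpoint (21), cohesin (11) and the DNA damage checkpoint (13) had no call by edgeR. At an unadjusted p under 0.05 they held 4, 1, 0 and 5 genes, and DESeq2 called 0, 0, 0 and 1.

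These 7 calls depended on single libraries, and that of shtd also on the filter, with an edgeR adjusted p of 0.0561 when no filter on low counts was used. Without control replicate 3, adjusted p-values were 0.146 for Cks85A, 0.0608 for RfC3, 0.0978 for Rca1, 0.0517 for zip, 0.0699 for pbl, 0.105 for tum and 0.124 for shtd. Without dTet replicate 3, they were 0.112, 0.0599, 0.108, 0.0671, 0.112, 0.0873 and 0.123 in the same order. Calls also ended without control replicate 2 for Cks85A (0.105), Rca1 (0.0835), tum (0.068) and shtd (0.0736), without dTet replicate 1 for Cks85A (0.0991), Rca1 (0.0929), pbl (0.0855), tum (0.087) and shtd (0.099), and without dTet replicate 2 for Cks85A (0.106), zip (0.0618), pbl (0.106), tum (0.144) and shtd (0.105). Over all 9 lists, the calls without control replicate 1 numbered 38 higher and 24 lower of 163 (38% together), where 14.5% of all tested genes were called higher and 18.8% lower (33.3% together).

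**Figure D5:**
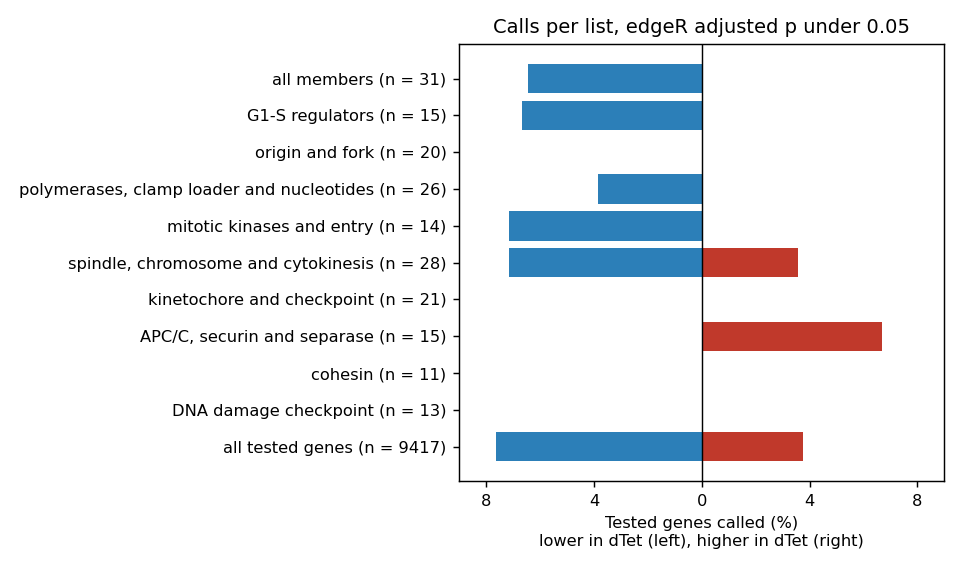
Share of tested genes called by edgeR in the 31 genes, in each of the 9 lists of other genes of the same processes and among all tested genes, with calls lower in dTet to the left and higher to the right. The 31 genes show 6.45%, all of it to the left, beside 7.64% lower and 3.77% higher for all 9417 genes.

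Markers of other tissues that disc preparations can carry were also summed. Summed levels in controls and dTet discs were 98.2 to 129 and 72.6 to 88.4 CPM for 6 neuroblast genes, of which pros fell, and 141 to 205 and 138 to 157 CPM for 4 hemocyte genes. For 3 fat body genes they were 268 to 1307 and 251 to 668 CPM, for 2 tracheal genes 4.22 to 6.58 and 5.38 to 6.94 CPM, and for 5 germline genes 0.685 to 2.19 and 2.00 to 2.29 CPM. For 3 glue genes of the salivary gland they were 16.3 to 45.8 and 0.765 to 12.2 CPM, with Sgs8 lower, and for 4 muscle genes 184 to 233 and 283 to 455 CPM, with Mhc higher. The neuroblast genes did not move together, with log2 fold changes of -1.46 for pros, -1.53 for wor, -0.41 for dpn and -0.31 for ase. For mira and insc they were 0.03 and 0.41, and pros alone of these genes was called. The part of these tissues in the levels of the 31 genes was not tested.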

How the data were processed

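Libraries were prepared from disc RNA with a stranded kit for total RNA, per the labels' protocols, with 3 biological replicates for each of the 2 genotypes. Reads were checked with FastQC 0.12.1 and aligned with HISAT2 2.2.0 to dm6, per the submitters' processing notes. The deposited values are unnormalized counts of read pairs for each gene. The authors ran featureCounts 2.0.6 over exons of FlyBase release 6.45, with both mates mapped and strand setting 2, per the file headers. By that program's defaults, pairs that overlap several genes on a strand or map to several places are left out. The coordinates given are those of the table, and they matched the Ensembl annotation for all 31 members. Gene lengths are the exon lengths of the table. The 95% intervals of fold changes come from the fit below and include the spread between replicates.

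The comparison used edgeR 4.0.16 under R 4.3.3 (filterByExpr, TMM, glmQLFit, glmQLFTest) on 9417 genes, with Benjamini-Hochberg adjustment over all of them and a threshold of 0.05. CPM is the count per 1000000 of the TMM-scaled library. Ratios of 6 gene pairs were compared by exact two-sided permutation of 3 against 3 libraries. Scripts were tested on simulated data.

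Alternatives were DESeq2 1.42.0 size factors and its own test, upper quartile scaling, no filter, 1 CPM in 3 libraries, limma-voom (limma 3.58.1), a replicate block, leaving out genes of ribosomal and small RNAs, a stricter threshold of 0.01, and a fit without each library in turn. All 31 members are named, with up to 4 called genes per list by smallest adjusted p, and the defining markers. The members and lists were chosen with earlier results of these data known. Promoter and protein sequences were not used here.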

Additional observations from a re-analysis of the deposited data

How the results depend on the processing

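The calls of dap and stg held under every alternative run, including each library left out and an adjusted p of 0.01. The number of members called lower was 4 by DESeq2 and 4 with no filter on low counts, against 2. With 1 library left out it ranged from 2 to 7, and the number called higher from 0 to 6. All genes called numbered 1733 by DESeq2 and 512 at an adjusted p of 0.01, and 560 to 3231 with 1 library left out. Other genes of the same processes were called higher in 5 cases by DESeq2, 1 with the replicate block and 0 at an adjusted p of 0.01 (0 to 38 with 1 library left out), and lower in 3 with the replicate block and 0 at an adjusted p of 0.01 (0 to 24). The phase median log2 fold change ranged from -0.16 to -0.06 for G1-S and from -0.25 to -0.06 for G2-M with 1 library left out. The log2 fold change of twe reversed by limma-voom (-0.02) and with the replicate block (-0.01), and it ranged from -0.25 to 0.17 over the 14 fits. Estimates near 0 that were never called also changed sign, each only when 1 library was left out, for CycE (-0.04 to 0.10), PCNA (-0.11 to 0.10), dpa (-0.00 to 0.12), dup (-0.03 to 0.28), CycA (-0.16 to 0.14), CycB (-0.03 to 0.06) and polo (-0.03 to 0.09). Same-numbered libraries of the 2 groups did not deviate together (correlations across genes of 0.031, 0.021 and -0.100). These values gave no sign that the numbers pair the samples, but they cannot show how the samples were handled. The edgeR fit with the replicate block called the same 2 members but not pbl (adjusted p = 0.0781), tum (0.0863) or shtd (0.0907). The pair ratios moved by less than the spread between replicates in every setting run. With 3 libraries a group, an exact permutation p cannot go below 0.1.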
